A study of Mus musculus with 13 samples.

Results

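The genes described here are 7 magnesium transporters and channels, listed by symbol: Cnnm1, Cnnm2, Cnnm3 and Cnnm4 of the CNNM family, the channel-kinases Trpm6 and Trpm7, and the carrier Slc41a1. All 7 were found among the 48709 Ensembl genes of the count table. RNA came from the enamel organ, the dental epithelium that makes enamel, of the lower incisor of mice aged 11 days after birth. The Het group is 5 libraries from Tgfbr2-G357W/+ mice, which carry 1 allele of the type II TGF-beta receptor with the substitution G357W, made as a model of Loeys-Dietz syndrome. The WT group is 8 libraries from Tgfbr2-+/+ littermates. The labels name no Cre, tissue-restricted allele or treatment, and the mouse incisor grows throughout life, so 1 enamel organ holds ameloblasts of several stages beside supporting epithelium.

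Magnesium enters and leaves cells through separate proteins. CNNM proteins sit in the plasma membrane and take part in moving magnesium out of cells, and loss of CNNM4 in people causes Jalili syndrome, in which cone-rod dystrophy occurs together with amelogenesis imperfecta. TRPM6 and TRPM7 are channels for magnesium and other divalent cations, each fused to a protein kinase, and SLC41A1 exchanges magnesium for sodium. In enamel, magnesium competes with calcium in the growing mineral, and maturation-stage ameloblasts carry ions between the blood side and the enamel.

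Total counts were 20266079 to 26122340 per Het library and 18852382 to 26508410 per WT library. Libraries are named by genotype and the number pair in their column name, whose first number (1, 4 or 5), called the prefix here, has no stated meaning. There was 1 Het library beside 3 of WT with prefix 1, 2 beside 3 with prefix 4, and 2 beside 2 with prefix 5. The study's text counts as many mice as libraries in each group, and nothing more is given on batches, so p-values measure the spread between these libraries. The 19 secretory-stage markers of enamel formation that were tested had a summed level from 148275 to 291216 CPM (counts scaled to a common library size). The 11 skeletal muscle markers summed to 11.4 to 206 CPM. The secretory sum does not speak for each gene of that list, where Ambn had 2983678 to 6450826 counts per library and Kif5c 0 to 48.

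The stretch before the start of 4 of the genes is shown because it pairs the most abundant members with a close relative of each that was far lower. Each is the 250 bases upstream of the RefSeq start on GRCm38.p6, read 5′ to 3′ on the gene's own strand, and capitals mark each match of CAGAC or its reverse complement GTCTG, the core of the motif that SMAD proteins, the transcription factors of TGF-beta signalling, are known to bind.
Cnnm4 (chr1:36471347-36471596, plus strand): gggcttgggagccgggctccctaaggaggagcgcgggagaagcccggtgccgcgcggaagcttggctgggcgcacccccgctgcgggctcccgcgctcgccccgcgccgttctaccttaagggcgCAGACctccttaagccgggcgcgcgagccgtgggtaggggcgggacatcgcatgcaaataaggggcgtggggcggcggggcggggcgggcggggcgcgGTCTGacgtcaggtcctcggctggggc
Cnnm3 (chr1:36511617-36511866, plus strand): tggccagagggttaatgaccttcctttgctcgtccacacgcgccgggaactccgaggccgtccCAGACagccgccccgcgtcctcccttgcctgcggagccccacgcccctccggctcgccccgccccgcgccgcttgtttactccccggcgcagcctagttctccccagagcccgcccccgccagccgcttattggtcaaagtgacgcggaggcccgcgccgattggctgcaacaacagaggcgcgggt
Trpm7 (chr2:126876262-126876511, minus strand): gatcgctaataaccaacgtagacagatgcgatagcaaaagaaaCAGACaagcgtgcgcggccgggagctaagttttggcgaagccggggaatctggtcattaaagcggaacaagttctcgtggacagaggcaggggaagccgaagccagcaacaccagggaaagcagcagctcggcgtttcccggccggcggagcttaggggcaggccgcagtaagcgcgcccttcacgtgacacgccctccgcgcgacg
Trpm6 (chr19:18749480-18749729, plus strand): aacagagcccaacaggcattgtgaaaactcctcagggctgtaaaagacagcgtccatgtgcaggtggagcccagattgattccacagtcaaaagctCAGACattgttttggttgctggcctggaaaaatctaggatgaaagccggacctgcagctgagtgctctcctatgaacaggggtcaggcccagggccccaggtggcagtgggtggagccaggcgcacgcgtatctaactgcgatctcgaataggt

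The Cnnm4 window was among the richest in C and G of all windows. It was 75.6% G or C, at percentile 96.7 of 32841 windows of the same length before RefSeq gene starts, and held 34 CG steps, at percentile 97. The medians of all windows were 52.4% and 6 steps. It held 5 matches, some overlapping, of GGGCGG or its reverse complement CCGCCC, the binding motif of SP factors, which 32.7% of all windows hold at least once, and 0 of CCAAT (or ATTGG) and TATAAA (or TTTATA). The window of Slc41a1, a far lower member that is not shown, also held 5 matches of GGGCGG. The Cnnm3 window held 29 CG steps (percentile 94.1), 3 matches of GGGCGG and 2 of CCAAT, which is in 33.9% of windows. The Trpm7 window held 26 CG steps (percentile 91.4) and no GGGCGG, and the Trpm6 window 7 CG steps (percentile 57). CAGAC was found 2 times before Cnnm4, starting 125 and 27 bases before the start, and 1 time each before Cnnm3, Trpm7, Trpm6 and Cnnm2. It is in 42.2% of all windows, so its presence does not set these genes apart, and a match of letters is not a binding site.

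Cnnm4 and Trpm7 were transcribed at levels far above the other members. Compared per length, as RPKM (counts scaled by exon length and library size), Cnnm4 stood at 604 ± 151 among WT libraries and 398 ± 72.2 among Het libraries (SD, n = 8 and 5). Its mean over all libraries ranked 26 among 16289 genes with a length. Trpm7 stood at 172 ± 21.04 RPKM among WT and 158 ± 31.9 among Het libraries (SD, n = 8 and 5) and ranked 137. These 2 genes took 0.252% and 0.187% of all counts on average.

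**Figure D1:**
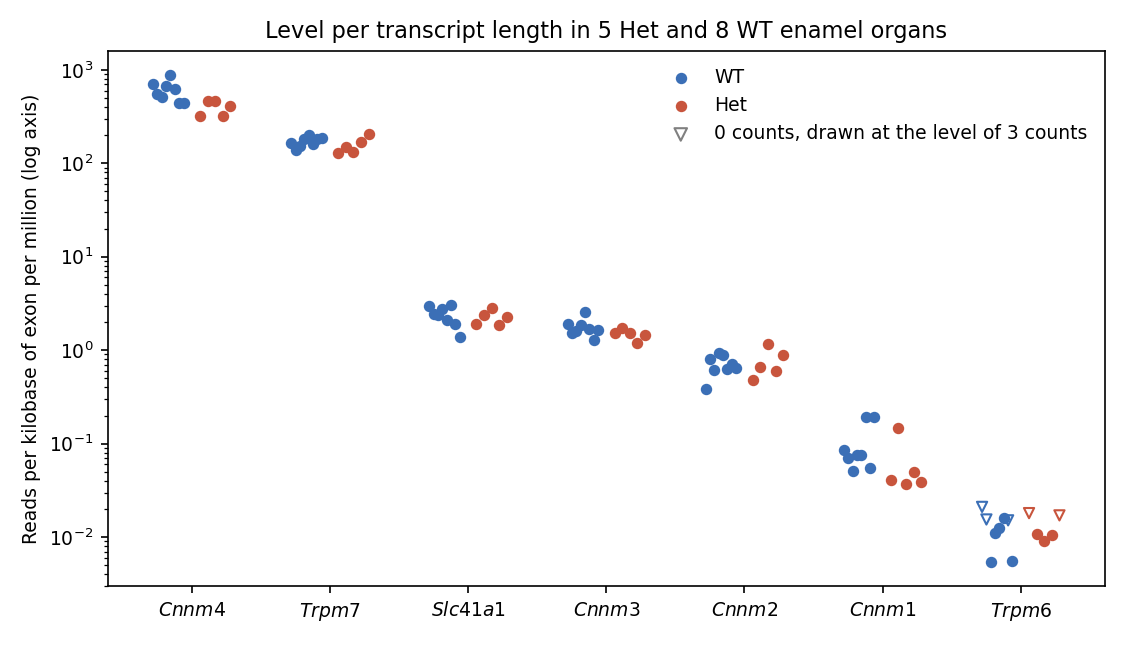
RPKM (log axis) of the 7 genes, with 1 point per library, 8 WT (blue) and 5 Het (red); open triangles are libraries with 0 counts, drawn at the level that 3 counts would give. Cnnm4 and Trpm7 lie above 100 in all 13 libraries, and the other 5 genes lie below 4.

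The order per length was Cnnm4, Trpm7, Slc41a1, Cnnm3, Cnnm2, Cnnm1 and Trpm6. Each gene exceeded the next in all 13 libraries, except that Slc41a1 exceeded Cnnm3 in 11 of 13 (5 Het and 6 WT). The order of these neighbours thus did not hold in every library, and no test was run on it. Cnnm4 was 1.92 to 4.32 times Trpm7 in the single libraries, and Trpm7 was 46.4 to 138 times Slc41a1. Slc41a1 had 2.36 ± 0.566 RPKM among WT and 2.25 ± 0.407 among Het libraries (SD, n = 8 and 5), and Cnnm3 had 1.76 ± 0.377 and 1.48 ± 0.180. Both lie near the middle of all genes ranked, with 51.0% and 58.6% of genes above them. Cnnm2, known from the kidney as a gene whose loss lowers blood magnesium, had 0.756 ± 0.266 RPKM in Het and 0.698 ± 0.173 in WT (SD, n = 5 and 8).

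Within the CNNM family nearly all of the signal per length was Cnnm4. Its share of the summed RPKM of the 4 genes was 99.6% ± 0.0658 among WT and 99.4% ± 0.0353 among Het libraries (SD, n = 8 and 5). Cnnm1, known mainly from brain and testis, had 5, 20, 6, 7 and 5 counts in the Het libraries and 7 to 27 in WT with a median of 9.5. Trpm6, the channel of kidney and gut that takes up magnesium, had 0, 2, 2, 2 and 0 counts in Het and 0 to 3 in WT, 15 counts in all 13 libraries together. No library held more Trpm6 counts than the 3 that a count of 0 allows, which corresponds to 0.106 to 0.163 CPM, so no difference between genotypes could be read at this depth. Limits of this kind cover counting error only.

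The comparison of Het with WT asks how the altered TGF-beta receptor relates to the transcripts of the enamel organ. Of the 7 genes 6 had enough counts to be tested, all but Trpm6. None passed the edgeR quasi-likelihood test over all 16328 genes at an adjusted p of 0.05, where 14 genes or 0.0857% were called, 0.0429% as lower and 0.0429% as higher in Het. The Het and WT ranges overlapped for all 6, and were apart for 0.49% of genes tested. DESeq2 called 0 of the 5 to which it gave an adjusted p (all but Cnnm1), and 74 genes or 0.481% of all that had one. The limma-voom fit called 0 of the 6, and 16 genes or 0.098% of all tested. At an unadjusted p under 0.05 the test picked 1 of the 6, Cnnm4, lower in Het, and over all genes it picked 6.9%, of which 4.18% were lower and 2.72% higher. The log2 fold changes of the 6 genes had a median of -0.18, with 5 negative and 1 positive, beside a median of -0.0044 and 50.9% negative over all genes tested.

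The level of Cnnm4 was lower in Het on average, without passing the test over all genes. It was 1556, 2248, 2253, 1559 and 1989 CPM in the Het libraries 1-2, 4-2, 4-5, 5-5 and 5-6. In WT it ran from 2111 to 4240 CPM with a median of 2850. All 5 Het libraries were below the WT median and 3 of them, 1-2, 5-5 and 5-6, were below every WT library, while the other 2 overlapped the 2 lowest WT libraries, both of prefix 5. At least 3 of 5 Het libraries lay below all WT libraries in 4.19% of genes tested. The estimate was 0.658 times the WT level, with a 95% interval of 0.508 to 0.852, or a log2 fold change of -0.60 ± 0.18 (SE). The unadjusted edgeR p was 0.00306, rank 143 of 16328 genes, and the adjusted p was 0.347. An exact two-sided permutation test of the log2 CPM with all 1287 ways to label 5 of the 13 as Het gave a difference of -0.585 and p = 0.0117, unadjusted. This difference was already known from earlier results on these libraries.

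**Figure D2:**
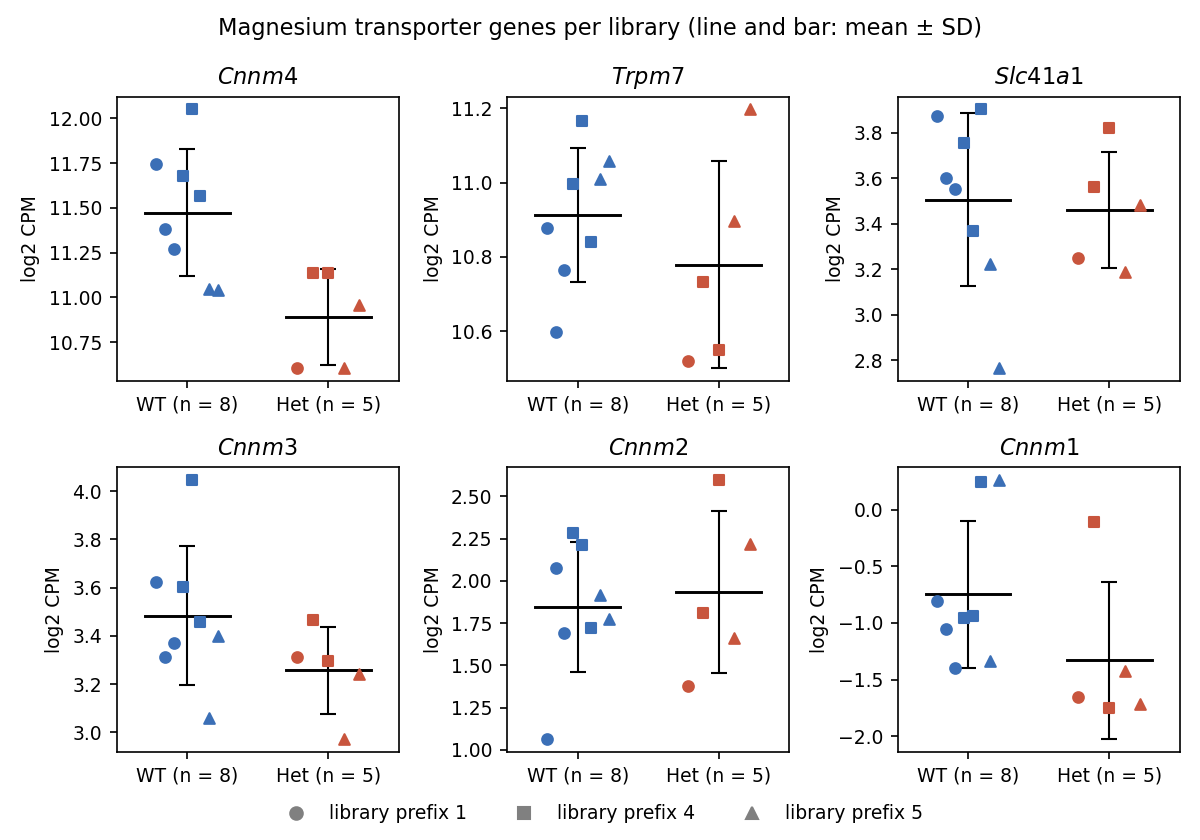
Log2 CPM of the 6 tested genes in 8 WT (blue) and 5 Het (red) libraries; marker shapes give the library prefix, horizontal lines the group means and bars ± 1 SD, and each panel has its own axis. Below every WT library lie 3 of 5 Het libraries for Cnnm4, 4 for Cnnm1, 2 for Trpm7, 1 for Cnnm3 and 0 for Cnnm2 and Slc41a1.

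The Cnnm4 difference had the same sign in each prefix. It was -0.86, -0.63 and -0.26 log2 CPM in prefixes 1, 4 and 5, with 1, 2 and 2 Het libraries against 3, 3 and 2 WT libraries. With the prefix as a term in edgeR, where 0.184% of genes were called, the log2 fold change was -0.57 ± 0.15 (adjusted p = 0.187). DESeq2, which called 0.481% of the genes it gave an adjusted p, gave -0.60 ± 0.17 (adjusted p = 0.0561). Over 28 alternative fits the value stayed between -0.67 and -0.51, the adjusted p between 0.0561 and 0.993, and the unadjusted p between 0.000285 and 0.0279. Without the library of highest level, WT 4-3, the log2 fold change by edgeR was -0.51 (unadjusted p = 0.00470, adjusted p = 0.501).

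Some marker lists leaned the same way as Cnnm4, while the 19 secretory-stage markers tested had 6 negative and 13 positive log2 fold changes. The lists were chosen with earlier results of these data known, so their leaning is no independent evidence on Cnnm4. Of 28 maturation-stage ameloblast markers 23 had a negative log2 fold change and 5 a positive one, with a median of -0.21, and 0 were called by edgeR. At an unadjusted p under 0.05 were 5 of the 28, all lower, where 4.18% of all genes were lower at that threshold. Steap2, a metalloreductase, and Slc39a2, a zinc importer, were called as lower by DESeq2 (adjusted p = 0.00306 and 0.00500, 0.481% of all genes called) and by edgeR with the prefix as a term (adjusted p = 0.0460 for both, 0.184% of all genes called). The summed level of all 28 maturation markers was 29371 to 55452 CPM in Het and 43220 to 59092 CPM in WT. This sum does not speak for each gene of that list, where Odam had 618384 to 1375607 counts per library and Slc5a8 0 to 25. Skeletal muscle markers had 11 of 11 negative values (summed level 14.7 to 82.6 CPM in Het, 11.4 to 206 in WT), osteoblast markers 10 of 10 (3695 to 7840 and 4449 to 9507 CPM), and osteoclast markers 9 of 10 (170 to 389 and 249 to 488 CPM), with no marker of these lists at 0 counts in all libraries. By edgeR 0 of these markers were called, and at an unadjusted p under 0.05 were 0 muscle, 1 osteoblast and 3 osteoclast markers, the last being Acp5, Tnfrsf11a and Itgb3. Ctsk and Atp6v0d2 are on both the osteoclast and the maturation list. The 11 negative muscle values do not show that muscle RNA was lower in each Het library. The mean log2 CPM of the muscle markers was highest in WT 1-4 (3.54), next highest in Het 1-2 (2.23) and lowest in WT 4-1 (-0.86). Its group means were 0.592 ± 1.142 in Het and 0.892 ± 1.399 in WT (SD, n = 5 and 8). The part of these marker lists in the Cnnm4 difference was not tested. Across the 13 libraries the level of Cnnm4 and the mean of the maturation markers had Pearson's r = 0.230 (permutation p = 0.456, adjusted p = 0.724) and Spearman's rho = 0.291 (permutation p = 0.334, adjusted p = 0.752). That r was 0.319 without WT 4-3 and WT 1-1, the 2 libraries farthest from the median of Cnnm4, -0.28 within genotypes and 0.483 within prefixes. In a bulk library, fewer cells that express a gene and less RNA per cell cannot be told apart.

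Cnnm3, a widely expressed relative with weak evidence of transport of its own, lies next to Cnnm4 on mouse chromosome 1. Cnnm4 (ENSMUSG00000037408) spans 36471620 to 36508764 and Cnnm3 (ENSMUSG00000001138) 36511867 to 36528237, both on the plus strand of GRCm38 with a gap of 3102 bases. The level of Cnnm3 was 9.85, 11.0, 9.73, 7.76 and 9.37 CPM in Het libraries 1-2, 4-2, 4-5, 5-5 and 5-6, and 8.25 to 16.4 CPM in WT with a median of 10.7. Het library 5-5 was below every WT library and the other 4 overlapped them. Its log2 fold change was -0.24 ± 0.15 (SE, edgeR adjusted p = 0.778), with a 95% interval of -0.55 to 0.07, and the prefix differences were -0.12, -0.32 and -0.12.

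The levels of Cnnm3 and Cnnm4 varied together from library to library. Pearson's r of their log2 CPM was 0.846 over 13 libraries (permutation p = 2e-04, adjusted p = 0.0054 over 27 relations) and Spearman's rho 0.786 (permutation p = 0.00227, adjusted p = 0.0613). Without WT 4-3 and Het 5-5, the libraries farthest from the median of Cnnm3, r was 0.683. It was 0.750 after subtracting the means of the prefixes and 0.841 after subtracting those of the genotypes. Mllt6, Traf4 and Zbtb7a, the genes of highest r with Cnnm4 in a search of 8464, followed it more closely (r = 0.958, 0.939 and 0.937). A close r with Cnnm4 was therefore not particular to its neighbour. No other of the 15 pairs of tested genes had an adjusted p under 0.05, by either measure. Trpm7 and Cnnm4 had r = 0.301 (permutation p = 0.317, adjusted p = 0.690) and rho = 0.0934 (permutation p = 0.765, adjusted p = 0.840), and r = 0.841 within prefixes, a value that no p was computed for. Cnnm3 and Trpm7 likewise had r = 0.261 (permutation p = 0.398, adjusted p = 0.717) and rho = 0.0934 (permutation p = 0.764, adjusted p = 0.840), and r = 0.861 within prefixes, so the closeness within prefixes was not particular to the neighbouring pair. Without WT 4-3 and Het 5-5 the Cnnm3 and Trpm7 r was -0.0053. Without WT 4-3 and WT 1-1 the Trpm7 and Cnnm4 r was 0.0722.

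The ratio of Cnnm4 to Cnnm3 was lower in Het. The log2 ratio was 7.29, 7.67, 7.84, 7.64 and 7.72 in Het libraries 1-2, 4-2, 4-5, 5-5 and 5-6, and 7.64 to 8.12 in WT with a mean of 7.99 ± 0.16 (SD, n = 8). The Het values all lay below 7 of the 8 WT libraries, and 2 of them lay below the lowest, WT 5-3. The difference was -0.36 (exact two-sided permutation test over 1287 labellings, p = 0.00544, adjusted p = 0.0109 over 2 ratios), and -0.74, -0.31 and -0.14 in prefixes 1, 4 and 5. Leaving out each library in turn gave -0.41 to -0.27 with exact permutation p from 0.00126 to 0.0121, and the smallest difference came without Het 1-2. The log2 ratio of Cnnm4 to Cnnm2 averaged 8.96 ± 0.33 for Het and 9.63 ± 0.50 for WT (SD, n = 5 and 8), a difference of -0.67 (exact permutation p = 0.0163, adjusted p = 0.0163), and the exact p was 0.0525 without Het 4-5. Its differences were -0.63, -0.76 and -0.36 in prefixes 1, 4 and 5. Because Cnnm4 was known to be lower in Het beforehand, a lower ratio to a gene that differs less was to be expected, whatever its p. These ratios say only that the estimates of Cnnm3 and Cnnm2 differed less, and are not a second sign of the lower level. Cnnm1, for which no ratio was computed, had a log2 fold change of -0.67 by edgeR, beside -0.60 for Cnnm4.

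**Figure D3:**
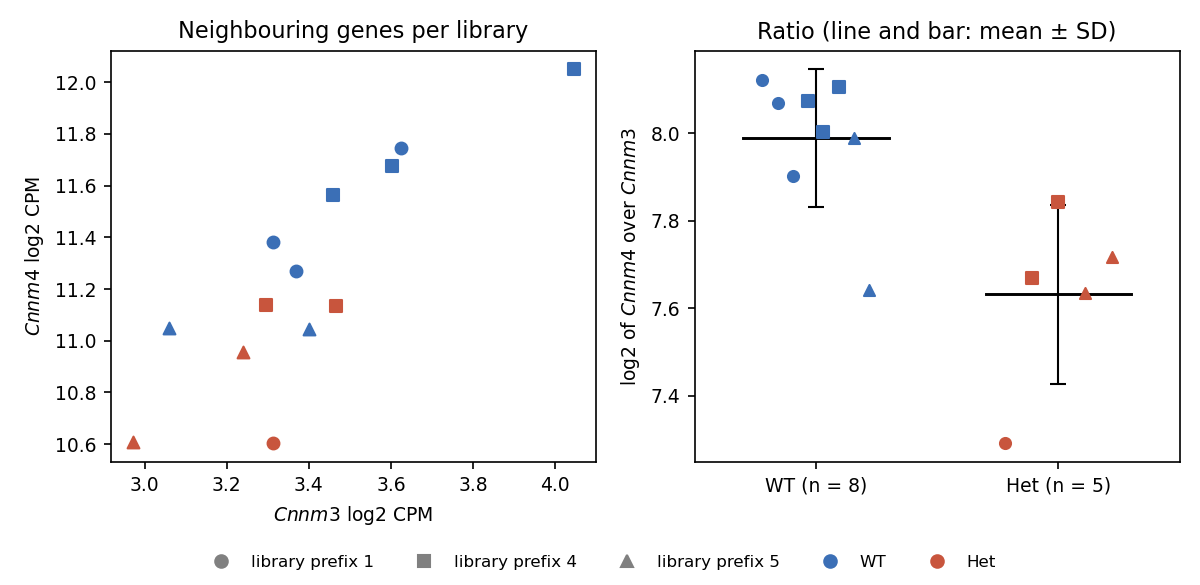
Left, log2 CPM of Cnnm4 against that of the neighbouring gene Cnnm3, with 1 point per library. Right, the log2 ratio of Cnnm4 to Cnnm3 in 8 WT (blue) and 5 Het (red) libraries, with the mean (line) and ± 1 SD (bar); marker shapes give the prefix. The 5 Het ratios lie between 7.29 and 7.84, below the other 7 WT libraries, and WT 5-3 lies among them at 7.64.

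Cnnm2 (ENSMUSG00000064105, chromosome 19, 46761596 to 46880192) was the 1 tested gene with a positive estimate. Its level was 2.51, 3.41, 5.96, 3.08 and 4.57 CPM in Het libraries 1-2, 4-2, 4-5, 5-5 and 5-6 and 2.00 to 4.78 CPM in WT with a median of 3.52. The Het range covered most of the WT range, and Het 4-5 was the highest of all 13. The log2 fold change was 0.12 ± 0.23 (SE, edgeR adjusted p = 0.941, 95% interval -0.36 to 0.59), and it was -0.08 without Het 4-5. Cnnm1 (ENSMUSG00000025189, chromosome 19, 43440436 to 43497210) had -0.67 ± 0.47 (SE, edgeR adjusted p = 0.807), with an interval of -1.66 to 0.32 that spans 0. For Cnnm1, 4 of 5 Het libraries were below all WT libraries, as in 1.10% of genes tested, but they hold only 5 to 7 counts, and Het 4-2 holds 20. Cnnm1 passed the filter on low counts mainly through WT libraries, so this position is not independent of the filter. Without Het 4-2 the log2 fold change of Cnnm1 was -1.25 (edgeR adjusted p = 0.506).

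Trpm7 (ENSMUSG00000027365, chromosome 2, minus strand, 126791565 to 126876230) is the channel-kinase that most cells express and that enamel formation in mice is known to need. Its level was 1468, 1700, 1498, 1905 and 2347 CPM in Het libraries 1-2, 4-2, 4-5, 5-5 and 5-6. In WT it ran from 1550 to 2298 CPM with a median of 1961. The ranges overlapped at both ends: Het 1-2 and 4-5 were below every WT library and Het 5-6 was above every one. The log2 fold change was -0.12 ± 0.14 (SE, edgeR adjusted p = 0.887), and the 95% interval ran from 0.750 to 1.13 times the WT level. Prefix differences were -0.23, -0.36 and 0.01, and the log2 fold change was 0.04 without all libraries of prefix 4. The coefficient of variation of CPM was 12.3% for Trpm7 and 24.9% for Cnnm4 among WT libraries, and 20.2% and 18.1% among Het libraries.

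Slc41a1 (ENSMUSG00000013275, chromosome 1, 131827493 to 131848865) showed no difference that could be told from the spread. Its level was 9.43, 11.7, 14.0, 9.03 and 11.1 CPM in Het libraries 1-2, 4-2, 4-5, 5-5 and 5-6, all within the WT range of 6.72 to 14.9 CPM, whose median was 11.8. The log2 fold change was -0.07 ± 0.17 (SE, edgeR adjusted p = 0.960), with an interval of -0.42 to 0.29, and its sign turned to 0.0029 with plain library sizes and 0.0096 with the prefix as a term. Differences were -0.42, 0.02 and 0.34 in prefixes 1, 4 and 5, and the prefix held 49.3% of its variance against 0.475% for genotype. For Cnnm4 the prefix held 36.0% and the genotype 47.6%. Each share comes from a fit of that factor alone, and the prefix has more levels than the genotype. The shares can therefore overlap and are not like parts of 1 total.

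Other genes of magnesium transport were described from a list of 33, of which 26 were tested. None was called by edgeR or limma-voom (0.0857% and 0.098% of all genes), or by DESeq2 among the 24 to which it gave an adjusted p (0.481%). An unadjusted edgeR p under 0.05 was found for 4 of the 26, with 2 lower and 2 higher in Het, beside 6.9% of all genes, 4.18% lower and 2.72% higher. The list had 10 negative and 16 positive log2 fold changes and a median of 0.08, beside -0.0044 over all genes tested. The pair with lower values are abundant. Slc41a2, a relative of Slc41a1 with 25.2 RPKM on average, had -0.41 ± 0.13 (SE, edgeR adjusted p = 0.390), and Magt1, a magnesium transporter that is also a subunit of the enzyme for N-glycosylation, had 64.2 RPKM and -0.21 ± 0.10 (adjusted p = 0.714). The pair with higher values are scarce. Fxyd2, a regulatory subunit of the sodium pump, had 33 to 101 counts and 0.73 ± 0.26 (adjusted p = 0.562), and Slc41a3, a mitochondrial relative of Slc41a1, had 20 to 76 counts and 0.71 ± 0.26 (adjusted p = 0.566).

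**Figure D4:**
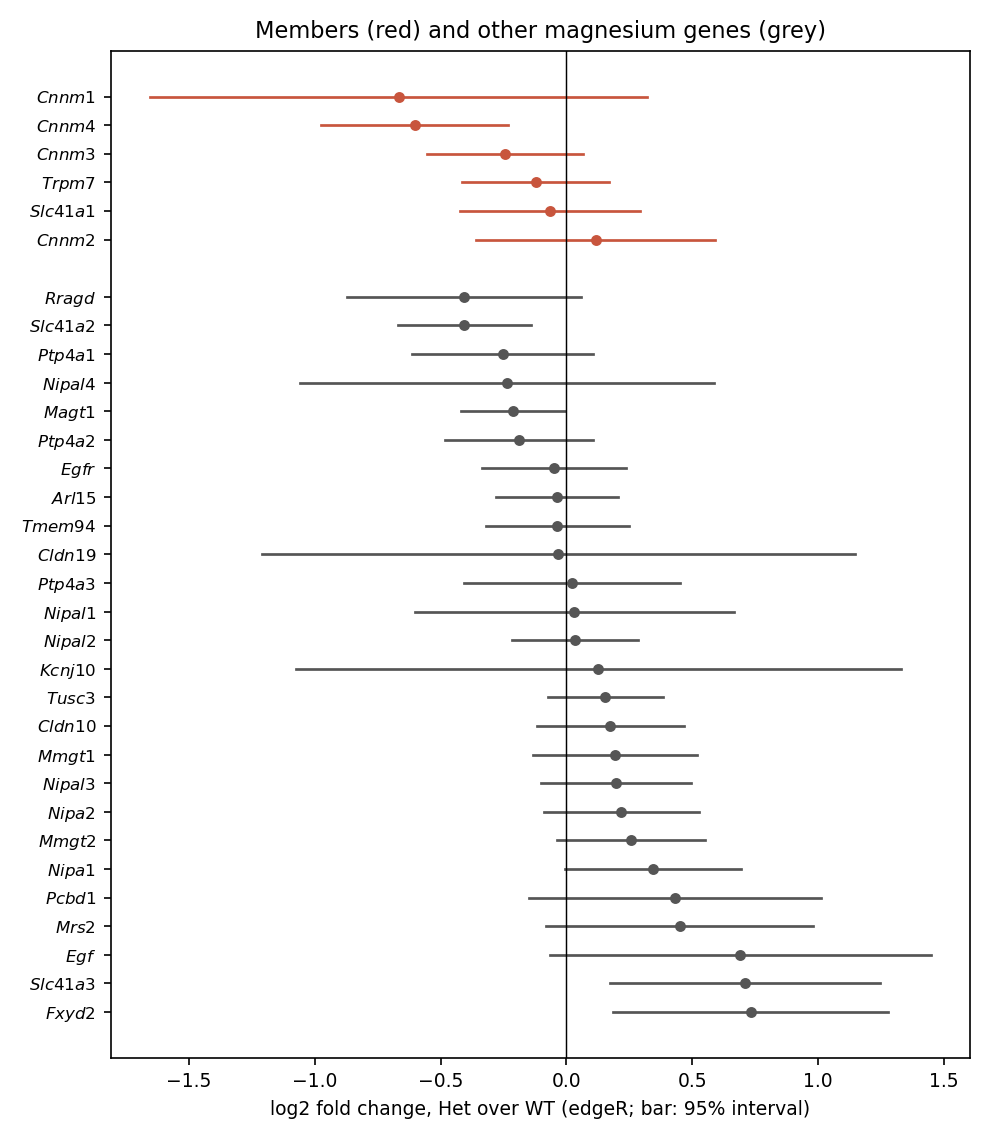
Log2 fold change of Het over WT with its 95% interval for the 6 tested members (red) and the 26 other magnesium genes tested (grey), each group sorted by value. The intervals of Cnnm4, Slc41a2, Magt1, Slc41a3 and Fxyd2 lie off 0 before adjustment, and none of the 32 genes was called after it.

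Of the phosphatases that bind CNNM proteins, Ptp4a2 was at a level near that of Cnnm4 and Ptp4a1 near that of Trpm7. Ptp4a2 and Ptp4a1, also called PRL-2 and PRL-1, are known to bind CNNM proteins and restrain magnesium efflux. They had 709 and 155 RPKM on average and log2 fold changes of -0.19 ± 0.14 and -0.25 ± 0.17 (SE, edgeR adjusted p = 0.819 and 0.798), while Ptp4a3 had 0.880 RPKM. These genes were picked from the list after their levels were seen. Cldn16, the claudin of magnesium reabsorption in the kidney, had 0 counts in all libraries.

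Of 6 other TRPM channels 5 were tested and 0 were called by edgeR (0.0857% of all genes), with 0 at an unadjusted p under 0.05 (6.9%) and 0 called by DESeq2 of the 4 to which it gave an adjusted p (0.481%). With 5 genes these counts are near those shares. The 4 of smallest p were Trpm1 (0.45 ± 0.40, SE), Trpm5 (0.23 ± 0.61), Trpm3 (0.06 ± 0.18) and Trpm2 (-0.16 ± 0.50), with edgeR adjusted p from 0.846 to 0.970. All 5 tested were below 1 RPKM, Trpm4 being the highest at 0.752, and Trpm8 had at most 3 counts. Of 10 genes for other divalent cations in ameloblasts 9 were tested, with 6 negative and 3 positive values and a median of -0.12. None was called by edgeR (0.0857% of all genes) and 3 of 9 had an unadjusted p under 0.05 (6.9% of all genes). Slc39a2, also on the maturation list, had -0.57 ± 0.12 (SE, edgeR adjusted p = 0.0770) and was called by DESeq2 (adjusted p = 0.00500) and with the prefix as a term in edgeR (0.0460). Stim1, the calcium sensor of the endoplasmic reticulum, had -0.28 ± 0.11, Atp2b1, a calcium pump of the plasma membrane, had 0.29 ± 0.11 and Slc24a4, a calcium exchanger, had -0.23 ± 0.11, with edgeR adjusted p of 0.584, 0.635 and 0.730.

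The genes whose log2 CPM followed each member most closely over the 13 libraries were searched among 8464 genes with a mean of at least 3 log2 CPM (8465 for Cnnm1 and Cnnm2). Being the highest of so many, their values of r are a description with no p, and all points share the prefixes and the scaling. Cnnm4 was followed by Mllt6 (r = 0.958, Spearman's rho 0.967), Traf4 (0.939 and 0.940) and Zbtb7a (0.937 and 0.912). Mllt6 kept r = 0.954 within genotypes and 0.951 within prefixes, and its log2 fold change was -0.45. Cnnm3 was followed by Fam193a, Lrfn4 and Klhl42 (r from 0.936 to 0.939, rho from 0.868 to 0.896). Trpm7 was followed by Prpf38b, Ccdc66 and Hnrnpc (r from 0.885 to 0.923, rho from 0.819 to 0.912), and Slc41a1 by Cdh13, Scamp3 and Tcf25 (r from 0.918 to 0.924, rho from 0.912 to 0.934). Cnnm2 was followed by Ptpdc1, Klhl5 and H1f0 (r from 0.861 to 0.887, rho from 0.692 to 0.824), and Cnnm1 by Hhex, Nr6a1os and Plekha3 (r from 0.864 to 0.910, rho from 0.835 to 0.863).

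Few counts were assigned to the other annotated genes that overlap the members, where these were analysed. The libraries are unstranded, and Cnnm1, Cnnm3, Trpm6 and Trpm7 overlap genes on the other strand. Gm24190 in Trpm6 and Gm38033, which overlaps 269 exon bases of Cnnm3, each had 0 counts in all libraries, and the pseudogene Gm14212 inside Trpm7 had at most 5. Gm47936 and Gm47938, which overlap Cnnm1, were not analysed here. Gm37909 and Gm47280 lie within Cnnm4 on its own strand and had at most 27 and 0 counts. How the counting step treated reads shared between genes is not given. These counts therefore cannot show how many such reads there were.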

How the data were processed

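Enamel organ RNA of 5 Het and 8 WT mice was read in unstranded libraries, per the labels' protocols. The submitters' processing notes name STAR 2.5.2a, GRCm38, DESeq2, edgeR and limma. Tool and annotation of the counting step: not given in the sources used here. Raw counts of 48733 features were deposited, and the 24 that are not genes were dropped before scaling (at most 0.000177% of a library). The authors also deposited a filtered count table and a normalized signal (CPM with TMM scaling, per the file's name), which was 0.996 to 1.003 times the CPM computed here for the members and was used for no test. Columns name the genotype and a number pair but no replicate number. No library was a repeat of another (lowest chi-square per gene 11.1 over 78 pairs).

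Genes kept by filterByExpr (minimum count 10) were tested with edgeR 4.0.16 in R 4.3.3 (TMM, robust glmQLFit, glmQLFTest), and p-values of all 16328 genes were adjusted by Benjamini-Hochberg. Log2 CPM has a prior count of 2. RPKM uses the union of exons in GENCODE M21 (GRCm38). Correlations used 100000 permutations. The code was tested on simulated data with 1 dispersion for all genes. There edgeR called 28.4% of the genes changed 1.5-fold and 83.6% of those changed 2-fold. A gene that is not called can therefore still differ by such a fold. DESeq2 1.42.0 and limma 3.58.1 were alternatives. All members are named. Of the lists of other magnesium genes, other TRPM channels and other cation genes, the 4 genes of smallest p and those called are named, and for each tested member the 3 genes of highest r. Single marker genes were named after their values were seen. Members and lists were chosen with earlier results of these data known. A planned ratio of Trpm6 to Trpm7 was not computed because Trpm6 was at the floor.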

Additional observations from a re-analysis of the deposited data

Results flagged for a closer look

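Cnnm1 in the Het library 4-2 stood at -0.108 log2 CPM, far above the other 4 Het libraries, of which the next highest had -1.43. It rests on 20 counts against 5 to 7. This was 1 of 12 groups of libraries examined (6 genes in 2 genotypes), and chance marks about 1 group in 20 in this way.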

How the results depend on the processing

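No paired analysis was possible because neither the columns of the count table nor the labels name pairs of Het and WT libraries. The prefix, which has no stated meaning, was used only as a term in a separate fit and to group or leave out libraries. No tested member was called over all genes in any of 28 alternative fits, and Cnnm3 and Cnnm4 kept a negative sign in all of them, as did Cnnm1 in the 21 fits that gave it an adjusted p. Cnnm1 passed the filter mainly through WT libraries and was not tested without WT 1-1, 4-1, 4-4 or 5-3. Its steady sign is therefore not independent of the filter. Slc41a1 turned positive with plain library sizes (0.0029), with the prefix as a term (0.0096) and without prefix 1 (0.077), and Trpm7 without prefix 4 (0.036). With 1 library left out, the log2 fold change ranged from -0.081 (without Het 4-5) to 0.24 for Cnnm2 and from -0.16 to 0.0021 for Slc41a1. The difference of mean log2 CPM then ranged from -0.89 to -0.44 for Cnnm1 (exact permutation p = 0.0242 without Het 4-2), from -0.0775 to 0.23 for Cnnm2, from -0.29 to -0.15 for Cnnm3 (p = 0.0391 without WT 5-1) and from -0.15 to 0.0236 for Slc41a1, and the log2 ratio of Cnnm4 to Cnnm2 from -0.77 to -0.52. Genes called over the whole table numbered 14, against 24 with plain library sizes, 27 with no filter, 25 with at least 1 CPM in 5 libraries, 74 with DESeq2, 27 with limma-voom and sample weights and 30 with the prefix as a term. They numbered 6 (without Het 4-2) to 22 (without WT 5-1) with 1 library left out, 2 without Het 1-2 and WT 1-4, 0 without prefix 1 (edgeR, 731 at an unadjusted p under 0.05), 1 without prefix 4 and 2 without prefix 5. The cause was not tested. Low counts limit Cnnm1 and Trpm6.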
